A study of Mus musculus with 4 samples.

Results

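This report describes genes of the extracellular matrix and the integrins, the cell surface receptors that bind it, in mouse embryonic stem (ES) cells in which Brg1 was knocked down. The members were chosen by symbol: collagen chains (Col followed by a number, a and a number), laminin chains (Lama, Lamb, Lamc), integrin chains (Itga, Itgb), and Fn1, Sparc, Nid1, Nid2, Hspg2, Agrn, Vtn and Tnc. On the array 126 of the 20380 probe sets with a single gene symbol met the rule, for 74 of 12393 genes. Spp1, which the rule also names, is not analysed here. The 74 genes were 22 of the basement membrane, 25 of the interstitial matrix, 3 matricellular or adhesive proteins, 4 membrane or anchoring collagens, 17 integrin chains, and 3 genes whose symbols only begin like those of integrins (Itgb1bp1, Itgb1bp2 and Itgb3bp, which encode other proteins). RNA was compared between R1 ES cells, an established mouse line, given a lentiviral short hairpin RNA (shRNA) against Brg1, and the same cells given a lentiviral shRNA against the glucose transporter GLUT4 as the control. Both groups were harvested 67 h after infection, and each group holds 2 arrays from duplicate infections. Control cells therefore also carried a lentivirus and a hairpin, and no uninfected cells are part of the comparison. Brg1 is an ATPase of SWI/SNF complexes, which move nucleosomes. On culture the labels say only that the supplier's guidelines were followed, and neither selection of infected cells nor feeder cells are mentioned.

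The basement membrane is a thin sheet under epithelia that is built from laminin trimers (1 alpha, 1 beta and 1 gamma chain), a network of type IV collagen, the nidogens that bridge them, and the heparan sulfate proteoglycans perlecan and agrin. The interstitial matrix lies between cells and holds fibrillar collagens and fibronectin. Integrins are pairs of an alpha and a beta chain that span the membrane and tie these proteins to the cytoskeleton or, in the pair of alpha 6 and beta 4, to the keratin filaments of hemidesmosomes. In the early mouse embryo laminins and type IV collagen form the first basement membranes, and ES cells attach in culture through laminin- and fibronectin-binding integrins.

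Smarca4, which encodes Brg1, had 652.1 and 621.5 signal units with Brg1 shRNA, against 1186.6 and 1213.6 with control shRNA, so its log2 difference was -0.89 ± 0.08 (SE, n = 2 arrays per group; limma, adjusted p = 0.000232). Slc2a4, the target of the control hairpin, lay below the level needed for testing, at 20.9 and 23.9 against 11.7 and 19.2. All 4 arrays had a trimmed mean of 200.1 signal units, so they stood on one scale before deposit, and the SD of the log2 differences between replicate arrays over all tested genes was 0.22 with Brg1 shRNA and 0.2 with control shRNA. All 8 ES cell markers examined were above the testing level. Of these, 2 rose and 6 did not pass, beside 14.4% of all tested genes past the test. Nanog had 1040.0 and 1003.1 with Brg1 shRNA, against 564.7 and 533.6 with control shRNA (log2 difference 0.87), and Fgf4 rose by 0.52. Among the 6 others, Zfp42 was at 0.25, Utf1 at 0.16 and Pou5f1 at 0.01. Sox2 was at -0.22, Tdgf1 at -0.12 and Dppa5a at -0.01. Of 18 fibroblast markers, which would mark feeder cells, 5 were tested, and 13, among them Pdgfra, Pdgfrb, Dcn, Lum and Postn, lay below the level; none was at 0 on all arrays. Summed over the fibroblast list, the signal was 1829.6 and 1866 with Brg1 shRNA, against 1196 and 1353 with control shRNA. Vim, which ES cells express too, rose, at 1152.6 and 1165.4 against 504.5 and 556.9 (log2 difference 1.10), and was the only marker of that list past the test. Without Vim the other 17 markers summed to 677 and 700.2 with Brg1 shRNA, against 692 and 796 with control shRNA, so the higher sum came from Vim. Tagln, the brightest of the 17, had 360.5 and 360.3 against 402.1 and 504.1 (-0.31) and weighed most on that sum. The others tested were Acta2 at 0.33, Loxl1 at 0.20 and Thy1 at -0.48. Fibroblast markers below the level went both ways, such as Fap at 0.50 and Cdh11 at 0.36 but Lox at -0.28 and Prrx1 at -0.16. Of 14 markers of primitive or parietal endoderm, which secretes basement membrane, 2 were tested, and the list summed to 306 and 334, against 271 and 282. Foxa2 rose, with 35.7 and 51.9 against 9.9 and 16.3 (0.94), its control mean lying below the testing level, and Dab2 did not pass (-0.12). The 12 markers below the level went both ways, with Sox7 at 0.46, Gata4 at 0.43 and Sox17 at 0.33, but Cubn at -0.30, Amn at -0.22 and Gata6 at -0.20. The part of either cell type in the results below was not tested.

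The members that this array could measure in ES cells were mostly basement membrane genes and integrin chains. A gene was tested where the mean log2 signal of its probe set reached the 40th percentile over the array, which was 23.9 signal units. By that level 13 of 22 basement membrane genes and 8 of 17 integrin chains were tested, but only 4 of 25 interstitial genes. Both type I collagen genes and Col3a1, the main collagens of connective tissue, were among the 7 of 9 fibrillar collagens below it. Col1a1 had 16 and 5.9 signal units with Brg1 shRNA, against 10.3 and 13.7 with control shRNA, and Col1a2 had 15.2 and 30.7 against 19.9 and 17.7. Col3a1 had 16.9 and 23.5 against 3.4 and 14.1. In all, 45 member genes were not tested, with signals of the probe set used from 0.4 to 38.1, and 38 of them stayed below the testing level on every array.

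Among the 29 members tested, 6 genes rose, 3 fell and for 20 no change was called (limma on log2 of signal plus 20, Benjamini-Hochberg adjusted p under 0.05 over all 7815 genes tested). Itgb4, Lama3, Itgb5, Col7a1, Sparc and Itga3 rose, and Fn1, Lama1 and Agrn fell. Over all tested genes 14.4% passed, 9.33% higher and 5.09% lower with Brg1 shRNA (729 and 398 genes, against 622 and 598 with each array centred on its median). A gene that was dim in 1 group could pass the filter through the other group, so the share of members that passed is a description, and 3 tested members had a control mean below the testing level (Itgb4, Lama3 and Col9a1). The median log2 difference of the tested members was 0.25, beside 0.04 over all tested genes. The arrays of the groups did not overlap in 20 of the 29, where 60.2% of all tested genes showed this. Without Brg1 shRNA replicate 2 the count was 3 higher and 2 lower, without control replicate 1 it was 3 and 3, and without control replicate 2 it was 6 and 1. With quantile normalization 5 rose and 4 fell, and with the arrays scaled to their hybridisation spike-ins, which moved the median of all tested genes to 0.33, 11 rose and 0 fell. Directions below are relative to the deposited scale. In such bulk RNA, fewer cells of a type and less RNA per cell cannot be told apart, and with duplicate infections of 1 line the p-values measure only the spread between these infections.

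**Figure D1:**
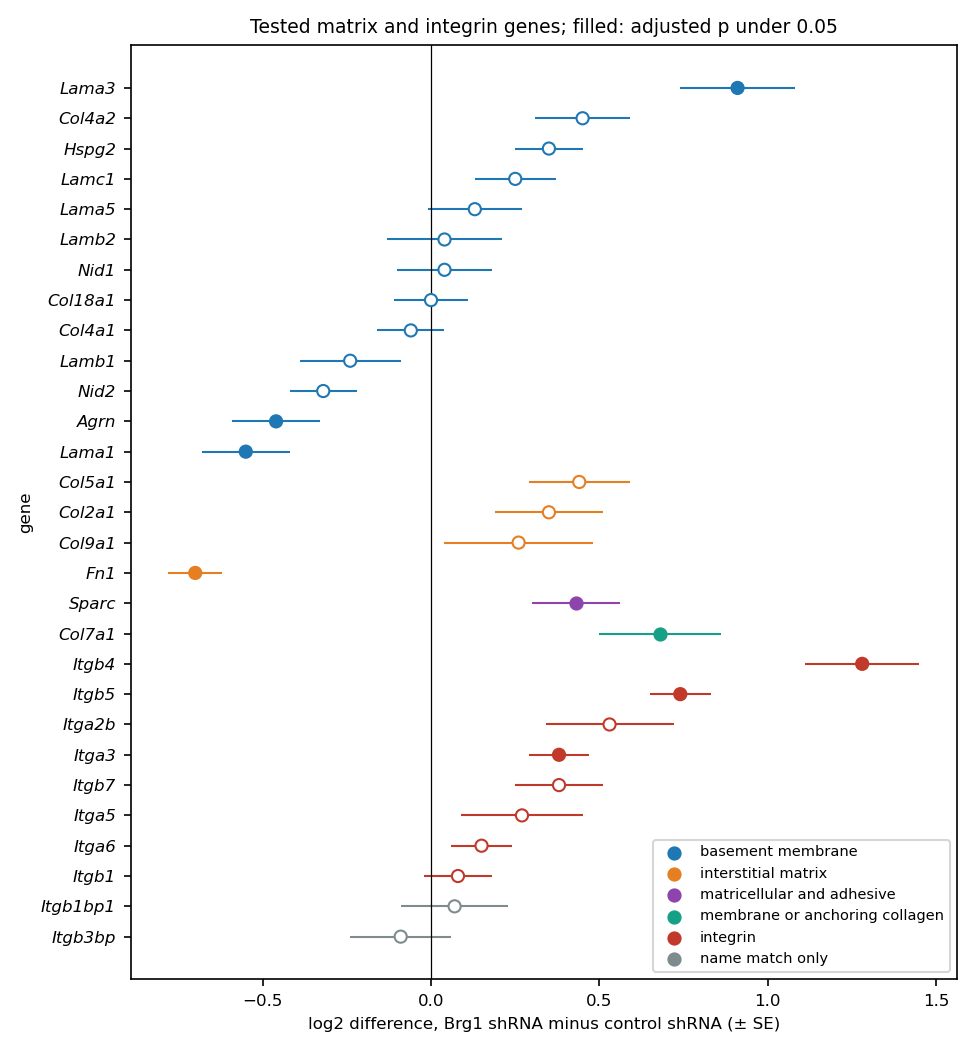
Log2 difference, Brg1 shRNA minus control shRNA, of the 29 tested members with its SE (n = 2 arrays per group), grouped by class and ordered within each class. Filled points passed the test at an adjusted p under 0.05; basement membrane genes lie on both sides of 0, and all 8 integrin chains lie at or above 0.08.

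Of 13 basement membrane genes tested, 1 rose (Lama3), 2 fell (Lama1 and Agrn) and 10 did not pass, beside 9.33% higher and 5.09% lower over all tested genes. Lama3 was tested only through its knockdown arrays, since its control mean lay below the testing level, so these few calls are a description of single genes. The median log2 difference of the 13 was 0.04, the same as that of all tested genes. Among the 4 tested interstitial genes, 0 rose, 1 fell (Fn1) and 3 did not pass, with a median of 0.31. That median is the middle of only 4 values, which run from -0.70 to 0.44, so the classes cannot be ranked by it, and no test of the difference between classes was made. With a pseudocount of 5 the interstitial median was 0.14. There Col9a1 was no longer tested, another gene was, and 2 of the 4 lay below 0. With a filter at the 60th percentile the median was -0.70, from Fn1 alone.

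Of the 6 laminin chains tested, Lama3 and Lama1 passed. Lama3, the alpha chain of the laminin that anchors skin and other epithelia, had 51.5 and 49.9 signal units with Brg1 shRNA, against 19.6 and 15.7 with control shRNA. Both knockdown arrays lay above both control arrays, whose values were below the testing level. The log2 difference was 0.91 ± 0.17 (SE; limma, adjusted p = 0.00732), and it was 1.3 with a pseudocount of 5 and 0.57 with one of 50. Lama1, the alpha chain of the laminin of the early embryo, was lower, with 76.3 and 88.2 against 123.5 and 136.5. The groups did not overlap, and the difference was -0.55 ± 0.13 (SE; limma, adjusted p = 0.0236). Lama1 missed the threshold when replicate 1 of the knockdown was left out (-0.47, adjusted p = 0.064) and when replicate 2 of the control was (-0.49, adjusted p = 0.0969). It also did so with no filter (adjusted p = 0.0831) and with spike-in scaling (-0.28, adjusted p = 0.346). Each of these genes had a single probe set.

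The other laminin chains did not pass. Lama5, the alpha chain that follows Lama1 in most adult basement membranes, had 332.1 and 376.5, against 274.7 and 375.5, a log2 difference of 0.13 with a 95% interval from -0.18 to 0.44. Lamb1, the beta chain that pairs with Lama1 and Lama5, had 207.1 and 146.1 against 210.5 and 208.7 (-0.24 ± 0.15, adjusted p = 0.297). The knockdown arrays were far apart and the control arrays close: without replicate 1 of the knockdown the difference was -0.47 (adjusted p = 0.0428). Its other probe sets gave -0.32 and -0.11. Lamc1, the gamma chain that both of those laminins share, had 617.9 and 633.3 against 461.8 and 594.7 (0.25 ± 0.12, adjusted p = 0.18), and it passed without control replicate 2 (0.42, adjusted p = 0.0231) and with the mean of its probe sets, the other of which gave 0.41. The 3 chains of the laminin of the early embryo, Lama1, Lamb1 and Lamc1, thus had log2 differences of -0.55, -0.24 and 0.25. Lamb2, a beta chain of neuromuscular and kidney laminins, differed by 0.04 ± 0.17. Lama2, Lama4, Lamb3 and Lamc3 were not tested. Lamb3, the beta chain that assembles with Lama3, had 5.6 and 8.7 against 7.5 and 13.

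Of the 6 type IV collagen genes only Col4a1 and Col4a2, whose products form the network of nearly all basement membranes, were tested, and neither passed. Col4a2 had 129.6 and 139.2 signal units with Brg1 shRNA, against 83.4 and 103.5 with control shRNA, with no overlap (log2 difference 0.45 ± 0.14, adjusted p = 0.0532). It lay just beyond the threshold and passed with the replicate number as a block (adjusted p = 0.0457), when replicate 2 of the control was left out (0.58, adjusted p = 0.037), under the rule that averages probe sets (adjusted p = 0.0344) and with spike-in scaling (0.73, adjusted p = 0.0108). Col4a1 had 248.1 and 263.7 against 258.4 and 278.7, a difference of -0.06 ± 0.10, although its other probe set above the testing level had 152.9 and 172.2 against 153.2 and 107.0, a difference of 0.30 (adjusted p = 0.268 when each probe set was tested singly, where 9.26% of 12543 probe sets passed). These genes stand head to head: in RefSeq (GRCm38.p6) the transcript of Col4a1 begins at position 11312826 of chromosome 8 on the minus strand and that of Col4a2 at position 11312805 on the plus strand, so that their annotated starts overlap by 22 bases. Whether Col4a2 differed from Col4a1 in its change was not tested.

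Of the proteoglycans and nidogens, Agrn alone passed the test. Agrn, which encodes agrin, had 240.7 and 220.9 signal units with Brg1 shRNA, against 282.9 and 372.9 with control shRNA. All knockdown values lay below the control values, which were themselves far apart. The difference was -0.46 ± 0.13 (SE; limma, adjusted p = 0.0459), close to the threshold, and it missed it without control replicate 2 (-0.27, adjusted p = 0.227) or knockdown replicate 2 (-0.40, adjusted p = 0.141). The call was also lost with no filter, no intensity trend, each probe set tested singly, or spike-in scaling, at adjusted p = 0.126, 0.0974, 0.0699 and 0.617. Hspg2, which encodes perlecan, had 329.5 and 374.0 against 272.9 and 271.4, a difference of 0.35 ± 0.10 (adjusted p = 0.0511), and its other probe set gave 0.42. Leaving aside blocks by replicate, it passed without Brg1 shRNA replicate 1 (0.43, adjusted p = 0.0391), with the stricter filter (adjusted p = 0.0476), with the mean of its probe sets (adjusted p = 0.0277) and with spike-in scaling (0.66, adjusted p = 0.0276). Nid2, a nidogen, had 219.0 and 213.0 against 262.7 and 286.4 (-0.32 ± 0.10, adjusted p = 0.069), and it passed with each array centred on its median (-0.37, adjusted p = 0.0343) and with quantile normalization (-0.36, adjusted p = 0.0463). Nid1 (0.04 ± 0.14) and Col18a1, the source of endostatin (0.00 ± 0.11), had intervals of -0.28 to 0.35 and -0.24 to 0.24 on the log2 scale.

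Fn1, which encodes fibronectin, fell by the largest amount among the tested members. Its signal was 881.4 and 968.2 units with Brg1 shRNA, against 1544.4 and 1475.2 with control shRNA, so the groups were far apart. The log2 difference was -0.70 ± 0.08 (SE; limma, adjusted p = 0.000774), which is 1.62-fold lower on this log2(signal + 20) scale. Its other probe set was at 86.4 and 52.3 against 185.9 and 158.5, a difference of -1.13 (adjusted p = 0.0104 when tested singly). The call was lost only with the spike-in scaling (-0.37, adjusted p = 0.18), among the 16 alternatives run. The 3 interstitial collagen genes tested did not pass. Col5a1, a chain of the minor fibrillar collagen that starts fibrils, had 58.5 and 60.5 against 39.1 and 38.5 (0.44 ± 0.15, adjusted p = 0.0785), and its other probe set above the testing level gave 0.33. It passed with no intensity trend (adjusted p = 0.0393) and with spike-in scaling (0.67, adjusted p = 0.0226). Col2a1, the cartilage collagen, had 52.9 and 47.3 against 32.3 and 37.4 (0.35 ± 0.16, adjusted p = 0.158), and Col9a1 had 18.8 and 39.6 against 22.5 and 18.1 (0.26 ± 0.22, adjusted p = 0.467).

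Sparc, a secreted protein that binds collagens, had 692.3 and 834.3 signal units with Brg1 shRNA, against 496.1 and 627.2 with control shRNA. The groups did not overlap but lay close together, and the log2 difference was 0.43 ± 0.13 (SE; limma, adjusted p = 0.047). Its other probe set gave 0.28 (adjusted p = 0.115 when tested singly). The call was lost when replicate 2 of the knockdown (0.30, adjusted p = 0.213) or replicate 1 of the control (0.27, adjusted p = 0.187) was left out. Adjusted p was 0.135 with no filter, 0.0517 with quantile normalization, 0.121 with no intensity trend, 0.0523 with the mean of its probe sets and 0.0733 when the probe set was tested singly. Col7a1, whose product forms the anchoring fibrils that fasten epithelial basement membranes to the tissue beneath, had 52.5 and 77.7 against 30.4 and 34.5. Both knockdown arrays were higher, with a wide gap between them, and the difference was 0.68 ± 0.18 (adjusted p = 0.0349). It lost the call without Brg1 shRNA replicate 2 (0.47, adjusted p = 0.175), control replicate 1 (0.63, adjusted p = 0.107) or control replicate 2 (0.74, adjusted p = 0.0531), and also with no filter (adjusted p = 0.121) and each probe set tested singly (adjusted p = 0.0516). Tnc and Vtn, which encode tenascin C and vitronectin, were not tested, nor were the membrane collagens Col13a1, Col17a1 and Col25a1.

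**Figure D2:**
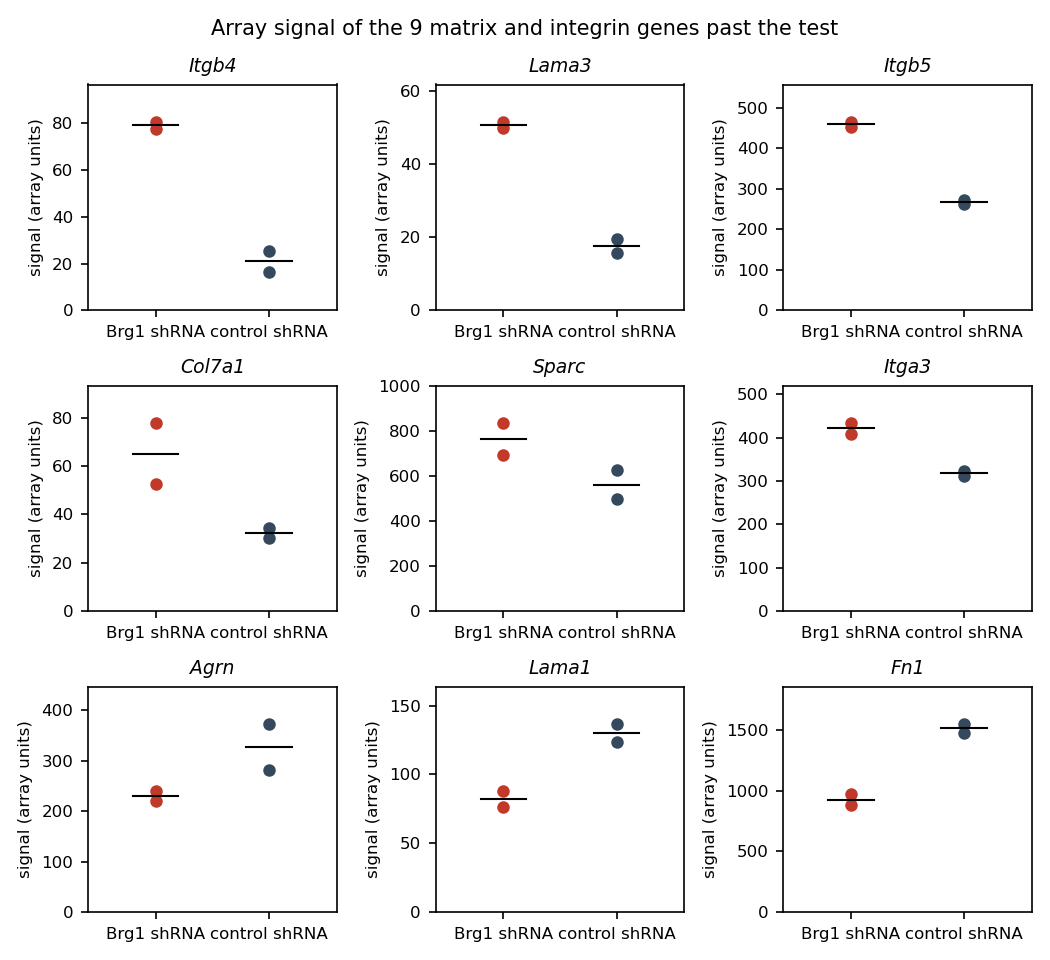
Signal in array units of the 9 members that passed the test, with 1 point per array and a line at the mean of the 2 arrays of each group; each panel has its own axis from 0. Itgb4, Lama3, Itgb5, Col7a1, Sparc and Itga3 were higher and Agrn, Lama1 and Fn1 lower with Brg1 shRNA. In no panel do the groups overlap, which was also so for 60.2% of all tested genes.

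The integrin chains that could be tested lay above 0 in log2 difference. Of 8 tested chains, 3 rose, 0 fell and 5 did not pass, beside 9.33% higher and 5.09% lower over all tested genes. These counts and the median below include Itgb4, tested only through its knockdown arrays, so they are a description of single genes. Of the 7815 genes tested, 4331 had a log2 difference above 0. All 8 chains did so (median 0.38, beside 0.04 over all tested genes). That held with median centring, quantile normalization and spike-in scaling, while Itgb1 turned to -0.01 when averaged over its probe sets and to -0.07 without control replicate 2. Itgb4, the beta chain that pairs with alpha 6 in hemidesmosomes, had 77.6 and 80.4 signal units with Brg1 shRNA, against 25.5 and 16.3 with control shRNA. The knockdown values nearly coincided. The control values lay around the testing level and their mean was below it, so Itgb4 was tested only through its knockdown arrays. The log2 difference was 1.28 ± 0.17 (SE; limma, adjusted p = 0.00148), and it was 1.72 with a pseudocount of 5 and 0.87 with one of 50. Itgb4 rested on a single probe set.

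Itgb5, the beta chain that pairs with alpha v to bind vitronectin, had 453.4 and 464.6 signal units with Brg1 shRNA, against 272.1 and 261.4 with control shRNA. The arrays of each group agreed closely, and the log2 difference was 0.74 ± 0.09 (SE; limma, adjusted p = 0.00123). Its other 3 probe sets gave 0.48, 0.33 and 0.27, all above 0 but none past the test by itself (adjusted p = 0.057, 0.122 and 0.2), so the size depends on the probe set. Itga3, the alpha chain of a laminin receptor with beta 1, had 433.2 and 408.7 against 323.9 and 312.4, a difference of 0.38 ± 0.09 (adjusted p = 0.0266). Its other probe sets gave only 0.14 and 0.07 (adjusted p = 0.499 and 0.784), and averaged over its probe sets it did not pass (0.20, adjusted p = 0.222), nor with no filter (adjusted p = 0.0573) or no intensity trend (adjusted p = 0.0597). It also lost the call without each array in turn, at adjusted p = 0.0831 and 0.0574 without Brg1 shRNA replicate 1 and 2 and 0.0508 and 0.0755 without control replicate 1 and 2, where its difference was 0.34, 0.42, 0.41 and 0.36.

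**Figure D3:**
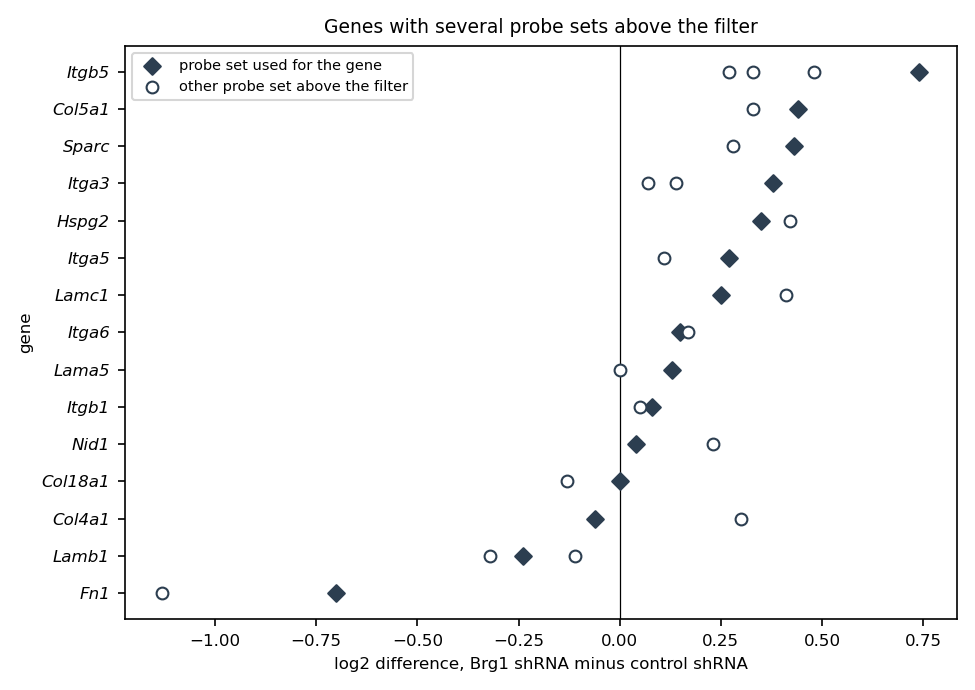
Log2 difference, Brg1 shRNA minus control shRNA, of each probe set above the testing level for the 15 members with several such probe sets. Diamonds mark the probe set used for the gene and circles the others; Fn1 lies below 0 and Itgb5 above 0 with every probe set shown, while Col4a1 has 1 on each side.

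The remaining integrin chains tested did not pass. Itgb1, the common beta chain of laminin, collagen and fibronectin receptors, had 1031.7 and 1112.6 signal units with Brg1 shRNA, against 1128.3 and 909.3 with control shRNA (0.08 ± 0.10, 95% interval from -0.16 to 0.31). Itga6, the alpha chain that pairs with either beta 1 or beta 4, had 744.6 and 712.6 against 627.8 and 678.4 (0.15 ± 0.09, adjusted p = 0.251). Itga5, the alpha chain of the main fibronectin receptor, had 134.6 and 100.9 against 77.3 and 111.9 (0.27 ± 0.18, adjusted p = 0.331), with overlapping arrays. Itgb7 and Itga2b, chains known from lymphocytes and platelets, did not pass either (adjusted p = 0.0741 and 0.0891), Itgb7 with 113.8 and 127.8 against 88.8 and 87.1 and Itga2b with 42.0 and 47.1 against 18.6 and 31.7. Both passed with spike-in scaling (0.66 for Itgb7, adjusted p = 0.0226, and 0.73 for Itga2b, adjusted p = 0.0127), and Itgb7 also under the rule that averages probe sets (adjusted p = 0.0463). Itga8, an alpha chain that binds nephronectin in the kidney, was not tested, since its mean lay below the level; it had 20.1 and 24.3 against 1.6 and 2.1. Without the filter, where all 74 members were tested, Itga8 was among those that passed. The 2 tested genes that only share the letters of integrin symbols had differences of 0.07 (Itgb1bp1) and -0.09 (Itgb3bp).

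Across the 15 members with several probe sets above the testing level, all differences of a gene had one sign in 13, and Col4a1 and Lama5 had both, the other probe set of Lama5 being at 0.00. A single probe set stood for 36 of the 74 genes. Calls of Itgb4, Lama3 and Itgb5 were kept in every alternative that tested them, of 16 run.

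**Figure D4:**
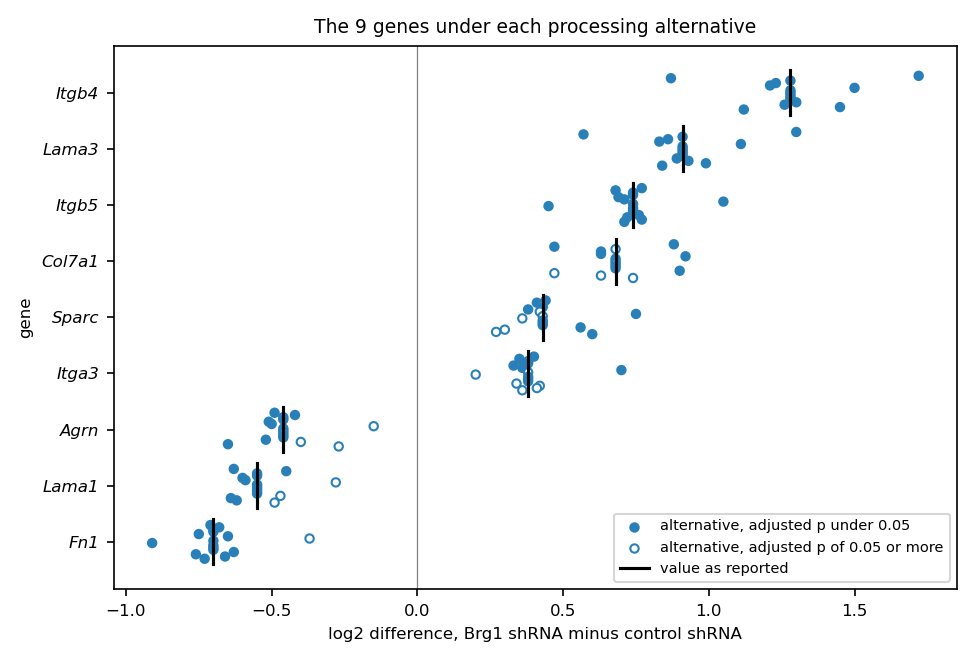
Log2 difference, Brg1 shRNA minus control shRNA, of the 9 members past the test under each processing alternative. Filled points had an adjusted p under 0.05, open points did not, and black lines mark the values as reported; no gene crosses 0, and Itgb4, Lama3 and Itgb5 have filled points only.

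The sequence just before the transcript start was read for the members that RefSeq (GRCm38.p6) provides, 52 of 74 genes, and for 5 of the 9 that passed the test. The 3 shown are Itgb5, Col7a1 and Sparc, which rose and whose 250 bases before the start lie outside any annotated gene. Capitals mark GC boxes (GGGCGG on either strand) and CCAAT boxes (CCAAT on either strand), each printed 5′ to 3′ on the strand of the gene. The windows are chr16:33829415-33829664 on the plus strand for Itgb5, chr9:108953336-108953585 on the plus strand for Col7a1 and chr11:55420081-55420330 on the minus strand for Sparc.
Itgb5: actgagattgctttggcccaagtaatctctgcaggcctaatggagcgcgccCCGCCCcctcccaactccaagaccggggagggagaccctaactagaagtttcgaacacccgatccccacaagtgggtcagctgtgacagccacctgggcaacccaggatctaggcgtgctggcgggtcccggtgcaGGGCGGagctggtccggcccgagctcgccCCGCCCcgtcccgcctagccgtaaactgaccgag
Col7a1: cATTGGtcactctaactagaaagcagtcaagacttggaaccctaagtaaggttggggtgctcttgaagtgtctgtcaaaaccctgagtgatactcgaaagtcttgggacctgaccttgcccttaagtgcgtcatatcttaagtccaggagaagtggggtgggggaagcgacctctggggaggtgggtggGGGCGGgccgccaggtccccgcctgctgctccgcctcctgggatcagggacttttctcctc
Sparc: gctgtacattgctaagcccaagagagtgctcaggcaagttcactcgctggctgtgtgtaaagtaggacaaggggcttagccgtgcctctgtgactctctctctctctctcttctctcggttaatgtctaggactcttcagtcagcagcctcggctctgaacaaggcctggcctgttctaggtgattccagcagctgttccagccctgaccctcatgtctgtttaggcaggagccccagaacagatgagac

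These windows differ in composition: that of Itgb5 holds 3 GC boxes, that of Col7a1 holds 1 GC box and 1 CCAAT box, and that of Sparc holds neither. Agrn, which fell, has 12 GC boxes before 1 of its annotated starts and 2 before the other, overlapping matches counted separately. Itga3, which rose, has 3 and 1 before its annotated starts. The windows of both overlap annotated genes and are not shown. A GC box lay in 30 of the 60 windows of member genes (50%), beside 32.7% of the 32851 windows of all genes. A CCAAT box lay in 25% of the member windows and 33.8% of all windows, a TATA box (TATAAA on either strand) in 13.3% and 12.4%, and the AP-1 motif (TGANTCA, its own reverse complement) in 1.67% and 6.75%. Such matches describe the letters of these windows and were set against no test.

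Genes that process or bind the matrix were counted beside the members. For 14 tested genes of collagen processing the test called 3 higher and 1 lower. Tgm2, a transglutaminase that cross-links matrix proteins, had 87.6 and 86.1 signal units with Brg1 shRNA, against 26.0 and 28.0 with control shRNA (log2 difference 1.19 ± 0.15), Crtap, a partner of collagen prolyl 3-hydroxylase, rose by 0.50, and Serpinh1, the collagen chaperone, fell to 146.4 and 130.8, against 195.7 and 221.3 (-0.53 ± 0.12). Of 19 tested genes of integrin adhesion, 3 rose, 0 fell and 16 did not pass. The rises were the laminin receptor Dag1 (0.57 ± 0.10), the focal adhesion adaptor Pxn (0.52 ± 0.09) and the tetraspanin Cd151 (0.40 ± 0.12). Cd151 lay close to the threshold (limma, adjusted p = 0.049). These 3 genes have 4, 3 and 6 probe sets, of which 1 each was used, and values of the others are not given here. Of 10 matrix proteases and inhibitors, 3 rose, 1 fell and 6 did not pass, with Plaur, the urokinase receptor, at 0.77 and Mmp11 at -0.57. Of 15 other matrix proteins and receptors, 3 rose, 1 fell and 11 did not pass; Thbs1, which encodes thrombospondin 1, had 141.8 and 130.3 against 50 and 55.0 (1.11 ± 0.13), and Sdc4, a syndecan, rose by 0.64. Tgm2 has 6 probe sets, and Serpinh1, Thbs1 and Sdc4 have 2 each. For these too 1 each was used, and values of the others are not given here. The shares past the test were 28.6%, 15.8%, 40% and 26.7%, beside 14.4% of all tested genes.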

How the data were processed

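Per the submitters' processing notes, the deposited signal intensities came from the Affymetrix software GCOS, with 1 linear value per probe set and array. The sources used here give neither its version nor the signal algorithm, and detection calls were not used. Probe sets were named through the platform annotation, with symbols brought up to date from the RefSeq table (GRCm38.p6) where the Entrez ID matched, which 20351 did. All 22690 probe sets were read, 64 of them Affymetrix controls; 20380 had 1 gene, 691 several and 1555 none. For each gene the probe set with the highest mean log2 signal was used, with _x_at probe sets only where a gene had no other. Signals were analysed as log2(signal + 20) without further normalization. Genes at or above the 40th percentile, 7815, entered a linear model (limma 3.58.1 under R 4.3.3, lmFit and eBayes with trend) whose two-sided p-values were adjusted over all of them by Benjamini-Hochberg. Depth has no counterpart on arrays, where the 2 arrays per group limit precision. The fit was also run on simulated data with known changes, all larger in log2 size than that of every called member but Itgb4. The spread was shuffled over genes there, so the run does not show how the fit does at the smaller changes reported here. Classes were set by gene; any member could be named, and of each pathway list up to 3 tested genes with the smallest p. Members, lists and alternatives were chosen with earlier results of these data known. Alternatives changed the pseudocount, filter, normalization, variance model, probe set rule, class borders and replicate block, or left out single arrays.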

Additional observations from a re-analysis of the deposited data

How the results depend on the processing

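Over 16 alternatives, the 9 members past the test gave 141 values, of which 111 also passed, 30 did not and 0 changed sign. The 20 tested members not past the test gave 310 values, of which 20 passed. With no filter, 433 genes changed and 1 member was lower. With spike-in scaling 11 members were higher and 0 lower. The basement membrane median was -0.03 with the stricter filter, -0.02 with median centring, -0.01 with quantile normalization and 0.30 with spike-in scaling. The interstitial median was 0.14 and 0.20 with pseudocounts of 5 and 50, 0.10 with no filter, -0.70 with the stricter filter (1 gene left), 0.26 with median centring, 0.24 with quantile normalization, 0.51 with spike-in scaling, 0.10 with the mean of all probe sets and 0.35 with matricellular genes included. Col9a1 was not tested with a pseudocount of 5, the stricter filter or the mean of all probe sets, so the genes behind the interstitial median differed there. Over all tested genes 729 were higher and 398 lower, against 622 and 598 with median centring, 651 and 439 with quantile normalization, and 1413 and 30 with spike-in scaling.

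Leaving out each array in turn gave 601 to 1171 changed genes, 3 to 6 members higher, 1 to 3 lower, a basement membrane median of -0.08 to 0.04 and an interstitial median of 0.18 to 0.37; a lone array was taken to vary as the paired ones do. The replicate number as a block gave 1187 changed genes, with 7 members higher and 3 lower, Col4a2 being the added one. Same-numbered arrays had deviations correlated at -0.14 across genes, so a crossed block was added after seeing the data, with 1478 changed genes, 8 members higher and 3 lower.

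Members not past the test that changed sign are as follows. With median centring Lamb2 was at -0.02 and Nid1 at -0.01. With quantile normalization Col18a1 was at 0.05, Lamb2 at -0.02 and Nid1 at -0.01. With spike-in scaling Col18a1 was at 0.32, Col4a1 at 0.24, Itgb3bp at 0.15 and Lamb1 at 0.06. With the mean of all probe sets Col4a1 was at 0.12 and Itgb1 at -0.01. Over the fits that left out single arrays, Col18a1 ranged from -0.17 to 0.17, Col9a1 from -0.05 to 0.57, Itgb1 from -0.07 to 0.23, Itgb1bp1 from -0.13 to 0.28, Lama5 from -0.08 to 0.34, Lamb2 from -0.17 to 0.24 and Nid1 from -0.05 to 0.12. The cause was not tested. The 45 untested members had a mean below the testing level in the probe set used; Col6a2 has an _x_at probe set above it, which the probe set rule passed over (0.06, adjusted p = 0.835 when tested singly).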

Other observations

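Parts of the hemidesmosome and its anchors, with the laminin receptor Bcam beside them, stood as follows. All were chosen after their values were seen. Itgb4, Lama3 and Col7a1 rose, though Itgb4 and Lama3 were tested only through their knockdown arrays. The call of Col7a1 was lost in some alternatives, as given above. Plec, the plakin that binds beta 4 to keratin, rose too. It had 427.6 and 487.8 signal units with Brg1 shRNA, against 267.5 and 305.7 with control shRNA (log2 difference 0.64 ± 0.11, limma, adjusted p = 0.00544). Dst, which encodes the plakin BPAG1, had 440.3 and 475.2 against 329.1 and 320.8 (0.47 ± 0.09, adjusted p = 0.0111), and Cd151 had 289.6 and 279.6 against 190.5 and 233.1 (0.40 ± 0.12, adjusted p = 0.049). Not all parts were raised: Itga6 did not pass, and Lamb3 and Col17a1 were below the testing level. Bcam had 368.3 and 353.8 against 355.9 and 494.2 (-0.21 ± 0.14, adjusted p = 0.339). Plec, Dst and Cd151 have 2, 4 and 6 probe sets, of which 1 each was used, and values of the others are not given here. As the genes were picked by their values, their joint direction has no test.

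Itgav, the alpha chain that pairs with Itgb5, had 279.0 and 278.7 signal units with Brg1 shRNA, against 246.8 and 221.9 with control shRNA (0.23 ± 0.10, adjusted p = 0.158). It has 3 probe sets, of which 1 was used. Vtn, a ligand of that pair, had 9.3 and 1.5 against 3.8 and 10.6 and was not tested.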
